A study of Mus musculus with 12 samples.

Results

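The growth factors examined here are the products of 10 genes that act on fibroblasts, blood vessels and epithelium in tumours: Pdgfa, Pdgfb, Pdgfc, Igf1, Tgfb1, Tgfb2, Tgfb3, Vegfa, Hgf and Areg. They were taken by name from the array annotation, and all 10 were present, with 18 of the 39429 probes on the array, and all 10 passed the detection filter among 20370 genes and transcript features tested. The samples were macrophages sorted by FACS from pancreatic tumours that had been implanted in female C57/B6 mice aged 8 to 10 weeks, 6 samples labelled YFP+ and 6 labelled YFP-. Genotype is marked as not provided for every sample. The series' design text names wild-type, KPC and FLT3-CRE/LSL-YFP mice. In the last, YFP marks cells descended from a haematopoietic progenitor that expressed Cre under Flt3 control, and that this applies to the 12 samples rests on that text alone. In such a model YFP- macrophages can include cells of any progenitor in which Cre was not active. Each of 3 slides held 2 arrays of either group. The labels carry 6 tumour numbers, each once per group, and do not say whether these are separate animals. The p-values below therefore cover the spread between these 12 samples alone, and part of that spread may be technical.

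Macrophages are a known source of most of these factors. Platelet-derived growth factors (PDGF) bind the receptor tyrosine kinases Pdgfra and Pdgfrb on mesenchymal cells and drive their proliferation and migration, and insulin-like growth factor 1 (Igf1) supports growth and survival through Igf1r. The transforming growth factors beta (TGF-beta) are secreted in a latent complex, and once released they signal through Tgfbr1 and Tgfbr2 to induce matrix production in fibroblasts and to restrain immune cells. Vegfa acts on endothelial receptors, Hgf on the epithelial receptor Met, and amphiregulin (Areg) on the epidermal growth factor receptor Egfr. In pancreatic ductal adenocarcinoma, a tumour with a dense fibrous stroma, the comparison of the macrophage populations by YFP asks whether they differ in such programmes.

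Each probe is a 60-base oligonucleotide, and the values describe the stretch of transcript it binds. The probes for Tgfb1 and Tgfb2 are shown because these 2 paralogues gave differences of opposite sign. Both lie in the sequence that encodes the C-terminal end of the mature cytokine. In their best alignment without gaps, 28 of 41 overlapping bases were identical, and capitals mark these bases. The letters run 5′ to 3′ in the sense of the transcript, and the mm9 positions come from the annotation of the array. The Tgfb1 probe lies at chr7:26489877-26489936 on the plus strand and the Tgfb2 probe at chr1:188449333-188449392 on the minus strand.
Tgfb1: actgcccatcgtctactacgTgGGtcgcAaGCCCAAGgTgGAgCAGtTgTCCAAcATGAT
Tgfb2: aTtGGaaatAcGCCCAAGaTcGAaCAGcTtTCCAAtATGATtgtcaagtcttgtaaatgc

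None of the 10 growth factor genes differed between YFP+ and YFP- tumour macrophages after adjustment over all features. The largest differences with every array well above background were −0.89 for Igf1 and 0.77 for Hgf, on the log2 scale and as YFP+ minus YFP-, and Tgfb2, a dim probe, gave −2.27. In limma with Benjamini-Hochberg adjustment, 0 of 10 members passed an adjusted p of 0.05 in either direction, where 1.75% of all features did (1.41% lower and 0.334% higher in YFP+). At an unadjusted p under 0.05 there were 4 members, Hgf and Tgfb1 with positive and Igf1 and Tgfb2 with negative differences, against 11.2% of all features. The median difference was −0.16 over the members and −0.03 over all features. For no member were the 6 YFP+ and 6 YFP- values fully separate, and 1.89% of all features were (1.46% lower and 0.427% higher in YFP+).

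Values are log2 processed signals minus the 75th percentile of the same array, so that 0 stands for a probe as bright as that percentile, and levels of different probes cannot be set against each other. Before scaling, the YFP+ arrays were brighter, with a 75th percentile of 3661 ± 265 intensity units in YFP+ samples against 2642 ± 413 in YFP- samples (SD over 6 arrays, exact permutation test, two-sided, p = 0.0043). The part of this in the differences was not tested beyond a fit with brightness as a covariate, given in the closing section. As brightness largely goes with the group, that fit cannot tell brightness from group. Fewer cells of a type and less RNA per cell cannot be told apart in such samples. Over all probes, arrays of 1 group correlated with each other at Pearson r of 0.88 to 0.93 in YFP+ and 0.85 to 0.92 in YFP-.

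**Figure D1:**
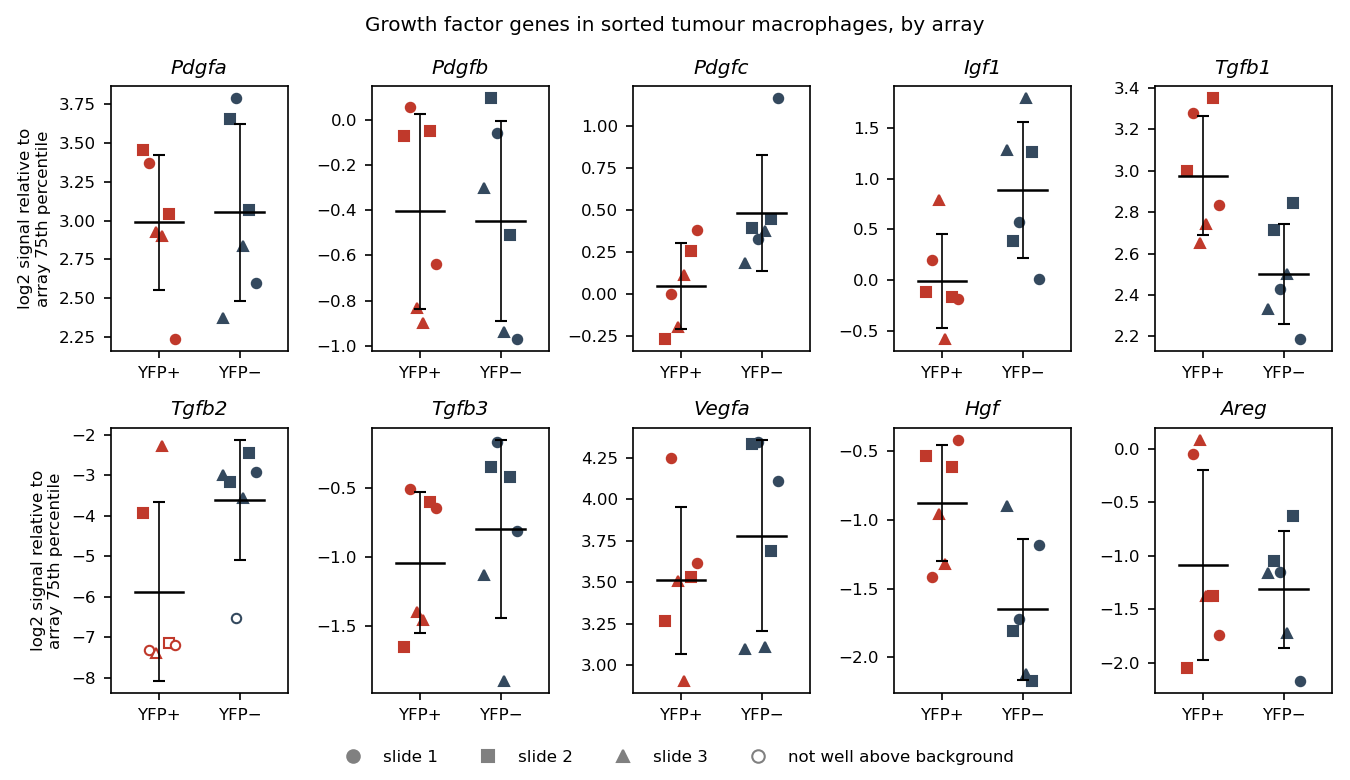
Log2 signal of each growth factor gene relative to the 75th percentile of the array, with 1 point per array, YFP+ left of YFP-, symbols for the slide, hollow points for spots not well above background, and the mean ± SD (n = 6). The ranges of the groups overlap in all 10 panels, and only Tgfb2 has hollow points, 4 in YFP+ and 1 in YFP-.

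Among the PDGF ligands, Pdgfa and Pdgfb had similar means in both groups. Pdgfa, which signals mainly through Pdgfra, ran from 2.23 through a median of 2.98 to 3.46 in YFP+ and from 2.37 through 2.95 to 3.79 in YFP-. The range within each group was over 1 log2 unit, far more than the difference between the means of −0.06 (SE 0.29, limma adjusted p = 0.97). Its 95% interval of −0.70 to 0.58 on the log2 scale allows ratios of YFP+ over YFP- from 0.614 to 1.49. A second Pdgfa probe, which shares 51 of its positions with the first, gave −0.02.

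Pdgfb, a ligand of both PDGF receptors, spanned −0.90 to 0.06 in YFP+ (median −0.36) and −0.97 to 0.10 in YFP- (median −0.41). The YFP+ values lay wholly inside the YFP- range. The difference was 0.04 (SE 0.26, limma adjusted p = 0.98, 95% interval −0.53 to 0.61), and a second Pdgfb probe 1062 bases away gave −0.37 with a wide interval of −1.68 to 0.94.

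Pdgfc, which is secreted with a CUB domain that must be cleaved off before it can activate Pdgfra, behaved less evenly. It measured −0.27 to 0.38 in YFP+ (median 0.05) and 0.18 to 1.17 in YFP- (median 0.38). Of the YFP+ arrays, 4 lay below every YFP- array, and the difference was negative in 6 of 6 tumour numbers and on all 3 slides (−0.56, −0.43 and −0.32). Its mean difference of −0.43 (SE 0.21) had an unadjusted limma p of 0.055 and an adjusted p of 0.46. The highest YFP- value, in replicate 6, stood apart from the other 5, and without that array the difference was −0.30.

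Igf1, which tissue macrophages in mice are known to make and which activates Igf1r on fibroblasts and epithelial cells, had signals of −0.58 to 0.79 in YFP+ (median −0.14) and 0.02 to 1.79 in YFP- (median 0.92). The groups overlapped, with 4 YFP+ arrays below every YFP- array and 3 YFP- arrays above every YFP+ array. The difference of −0.89 (SE 0.33), or 1.86-fold lower in YFP+, was negative in 5 of 6 tumour numbers. It was −0.29 on slide 1, −0.96 on slide 2 and −1.43 on slide 3. The unadjusted limma p was 0.018 and the adjusted p 0.28, with a 95% interval of −1.60 to −0.18.

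The array carries 5 Igf1 probes, and they did not all give the same picture. The 4 probes that the array annotation assigns to transcript variant 1, from chr10:87393561-87393620 to chr10:87399581-87399640 in mm9, gave differences of −0.81, −0.89, −1.04 and −1.05. One pair of these 4 shares 40 positions, and all 4 were read in the same samples, so they are not independent replicates. The probe assigned to variant 2, which starts 15125 bases upstream of the probe used, at chr10:87378456-87378515, gave −0.08 with a 95% interval of −1.39 to 1.23. At that probe the values ran from −3.74 to −1.03 in YFP+ and from −4.02 to −1.22 in YFP-, so the groups covered nearly the same range. This comparison between probes was made after their values were seen and was not tested.

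**Figure D2:**
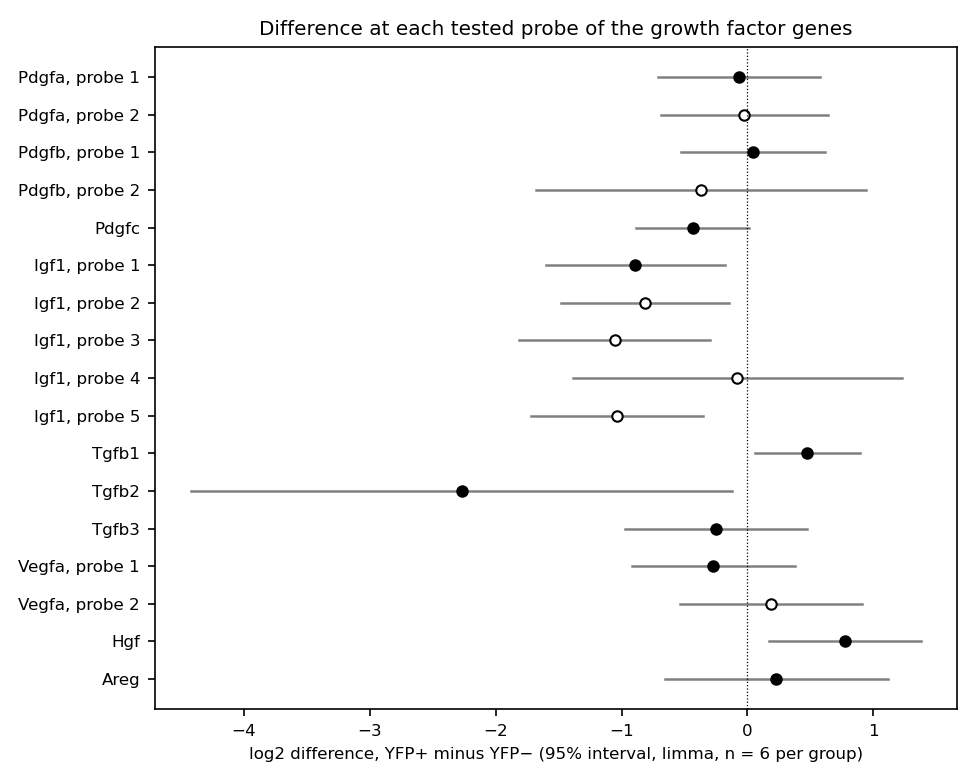
Log2 difference, YFP+ minus YFP-, at the 17 tested probes of the growth factor genes, with 95% intervals from limma (n = 6 per group) and filled points for the probe that represents the gene. The 4 Igf1 probes of transcript variant 1 lie between −1.05 and −0.81, the probe of variant 2 (probe 4) lies at −0.08, and the Tgfb2 interval is by far the widest.

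The TGF-beta isoforms gave differences of both signs. Tgfb1, the isoform typical of blood-derived and immune cells, measured 2.65 to 3.35 in YFP+ (median 2.92) and 2.19 to 2.84 in YFP- (median 2.47). Its ranges overlapped only in part, with 3 YFP+ arrays above every YFP- array and 4 YFP- arrays below every YFP+ array. The difference was 0.48 (SE 0.19), or 1.39-fold higher in YFP+, and positive in 6 of 6 tumour numbers and on all 3 slides (0.75, 0.40 and 0.28). The unadjusted limma p was 0.028 and the adjusted p 0.34. This probe was printed 10 times on each array, and the SD between its spots on 1 array was 0.08 to 0.18, against an SD between arrays of 0.29 in YFP+ and 0.24 in YFP-.

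Tgfb2 was at the edge of detection. Its probe was well above background on 2 of 6 YFP+ and 5 of 6 YFP- arrays, and its log2 signal ran from −7.40 through a median of −7.17 to −2.28 in YFP+ and from −6.53 through −3.08 to −2.46 in YFP-. The detected YFP+ values, −2.28 and −3.92, lay just above and just below the 5 detected YFP- values, −3.56 to −2.46, and the other arrays of both groups lay between −7.40 and −6.53. The difference was −2.27 (SE 0.99, limma adjusted p = 0.40). With normexp background correction, which raises dim spots, it was −0.89. Without YFP- replicate 3, the 1 dim array of that group, it was −2.85. A second Tgfb2 probe was above background on 1 YFP+ and 3 YFP- arrays, did not pass the filter and differed by −1.47.

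Tgfb3, an isoform made by mesenchymal cells among others, ran from −1.65 through −1.02 to −0.51 in YFP+ and from −1.91 through −0.62 to −0.16 in YFP-. The YFP+ values lay inside the YFP- range. The difference was −0.25 (SE 0.33, limma adjusted p = 0.87, 95% interval −0.97 to 0.47), and it ranged over the slides from −0.75 to 0.09. Its 10 spots per array differed by an SD of 0.04 to 0.17, far less than the SD between arrays of 0.51 in YFP+ and 0.65 in YFP-.

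Whether isoforms of 1 family differed unequally was tested as the difference between the 2 genes on each array, in 6 pairs, with an exact two-sided permutation test adjusted over the pairs. Tgfb3 minus Tgfb1 averaged −4.02 ± 0.40 in YFP+ against −3.30 ± 0.62 in YFP- (SD over 6 arrays each), a shift of −0.72 with exact p = 0.039 and an adjusted p of 0.12. Tgfb2 minus Tgfb1 shifted by −2.75 (exact p = 0.028, adjusted p = 0.12), which rests on the dim Tgfb2 spots. The PDGF pairs and Tgfb3 minus Tgfb2 had adjusted p-values from 0.33 to 0.64. No pair passed 0.05, and the smallest p that 6 against 6 arrays allow is 0.0022. Tgfb3 minus Tgfb1 passed only without YFP- replicate 4 (−0.95, adjusted exact p = 0.026). With any 1 of the other arrays left out its adjusted exact p was 0.14 to 0.21, and on the deposited values 0.20.

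Of the factors that act on vessels and epithelium, Vegfa, the main driver of endothelial sprouting, measured 2.90 to 4.25 in YFP+ (median 3.52) and 3.10 to 4.35 in YFP- (median 3.90). The groups overlapped over most of their range. The difference was −0.27 (SE 0.30, limma adjusted p = 0.82, 95% interval −0.92 to 0.38) at the more 3′ probe. At a second, more 5′ probe it was 0.19 with an interval of −0.53 to 0.91, so both signs occurred and neither differed from 0 beyond its error.

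Hgf, the ligand of Met, is known mainly from mesenchymal cells and is also made by macrophages. It measured −1.41 to −0.42 in YFP+ (median −0.79) and −2.17 to −0.90 in YFP- (median −1.76). The ranges overlapped between the lower YFP+ and the higher YFP- arrays, with 3 YFP+ arrays above every YFP- array and 4 YFP- arrays below every YFP+ array. The difference of 0.77 (SE 0.28), or 1.71-fold higher in YFP+, was positive in 6 of 6 tumour numbers and on each slide (0.53, 1.41 and 0.37). It had the smallest unadjusted limma p of the members, 0.016, with an adjusted p of 0.27 and a 95% interval of 0.17 to 1.37.

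Areg, an Egfr ligand linked to tissue repair, had the widest spread of the members detected on all YFP+ arrays, −2.05 to 0.08 (median −1.37), against −2.17 to −0.63 in YFP- (median −1.16). The top of the YFP+ range came from replicates 2 and 3, at −0.05 and 0.08, which were above every YFP- array, while the other 4 YFP+ arrays lay between −2.05 and −1.37. The difference was 0.23 (SE 0.41, limma adjusted p = 0.91, 95% interval −0.65 to 1.11). Without YFP+ replicate 3 it was −0.004, and over the slides it was 0.77, −0.87 and 0.79.

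Most receptors, binding proteins and activators of these factors did not pass the test either. Of 75 listed pathway genes 63 were tested. Of these, 2 were called lower in YFP+ and 0 higher, where 1.41% of all features were called lower and 0.334% higher. The median difference of the tested pathway genes was −0.29, against −0.03 over all features. The other listed genes, Egf, Btc, Ereg, Epgn, Erbb4, Igf2, Igfbp1, Igfbp5, Pdgfd, Itgb8, Vegfd and Flt4, did not pass the detection filter. Of the tested pathway genes 48 had a negative difference (76.2%), against 52.8% of all features. With median centring, which moved the median of all features to 0.18, it was 33 of 63 (52.4%), against 33.2%. With normexp it was 48 of 63 (76.2%), against 60.1%. The 2 called genes were Erbb2 and Irs1. Erbb2, the co-receptor that pairs with Egfr and other ERBB kinases, averaged −5.40 ± 1.15 in YFP+ against −1.96 ± 0.65 in YFP- (SD over 6 arrays each), a difference of −3.44 (SE 0.50, limma adjusted p = 0.0040). It was well above background on 3 of 6 YFP+ and 6 of 6 YFP- arrays, and the groups did not overlap. With normexp, which raises dim spots, its difference was −1.65 and the call held. Irs1, the adaptor that couples Igf1r and the insulin receptor to PI3 kinase, averaged −5.07 ± 0.59 in YFP+, where 2 of 6 arrays were above background, and −2.92 ± 1.14 in YFP-, where 5 of 6 were. Its difference of −2.15 (SE 0.49) passed narrowly, with a limma adjusted p of 0.049, and was −1.08 with normexp (adjusted p = 0.036). The Irs1 call held in only 2 of the 12 fits that left out 1 array, where the adjusted p ran from 0.028 to 0.11, namely those without YFP- replicate 2 or YFP- replicate 6. It was lost with slide as a block (0.056), with median centring (0.080) and on the authors' deposited values (0.089). The Erbb2 call held in 12 of 12 fits with 1 array left out and in these 3. With brightness as a covariate both calls were lost, Erbb2 at −2.68 (SE 0.92, limma adjusted p = 0.35) and Irs1 at −3.34 (SE 0.82, adjusted p = 0.21). Brightness largely goes with the group, so that fit has wider SEs and cannot tell brightness from group.

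The PDGF receptors, which mark fibroblasts and pericytes, were dim. Pdgfra averaged −6.06 ± 1.37 in YFP+ against −3.41 ± 1.56 in YFP- (SD over 6 arrays each), above background on 2 and 5 arrays, and differed by −2.65 (SE 0.78, limma adjusted p = 0.14). Pdgfrb differed by −1.74 (SE 1.14, limma adjusted p = 0.64), with 3 YFP+ and 4 YFP- arrays above background. Of 4 listed PDGF partners 3 were tested, and 0 passed.

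In the IGF list, 13 of 16 genes were tested, and Irs1 was the 1 that passed. Igfbp3, the main circulating IGF carrier, differed by −3.22 (SE 0.78, limma adjusted p = 0.065), with all 6 YFP+ values below the YFP- values. Igf1r, the receptor itself, differed by 0.08 (SE 0.40, limma adjusted p = 0.97).

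For TGF-beta, 0 of 14 receptors and effectors and 0 of 10 tested latency and activation genes passed. Tgfbr1 differed by 0.10 (SE 0.20) and Tgfbr2 by −0.35 (SE 0.22), with limma adjusted p-values of 0.93 and 0.63. Eng and Acvrl1, receptors of the family that are best known from endothelium, differed by 0.72 (SE 0.29) and 0.60 (SE 0.31), with limma adjusted p-values of 0.35 and 0.52. The latent TGF-beta binding proteins, which tether the latent complex to matrix, gave −2.68 for Ltbp1 (SE 0.79, adjusted p = 0.14) and −1.64 for Ltbp2 (SE 0.47, adjusted p = 0.13).

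Among the VEGF, HGF and EGF partners, 0 of 7, 0 of 8 and 1 of 8 tested genes passed, the last being Erbb2. The VEGF receptors Flt1 and Kdr differed by −0.11 (SE 0.23) and −0.10 (SE 0.22), the co-receptor Nrp1 by −0.50 (SE 0.28) and the lymphangiogenic ligand Vegfc by −1.72 (SE 0.89), with limma adjusted p-values of 0.93, 0.93, 0.57 and 0.52. Vegfc was dim, above background on 3 YFP+ and 6 YFP- arrays. Met, the Hgf receptor, was above background on 5 YFP+ and 2 YFP- arrays and differed by 0.26 (SE 0.75, adjusted p = 0.95). Hgfac, a protease that activates Hgf, had −1.93 (SE 0.45, limma adjusted p = 0.053), and Spint2, an inhibitor of such proteases, −0.63 (SE 0.24, adjusted p = 0.30). Egfr, the Areg receptor, differed by −0.80 (SE 0.30), negative in 6 of 6 tumour numbers, with a limma adjusted p of 0.30.

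**Figure D3:**
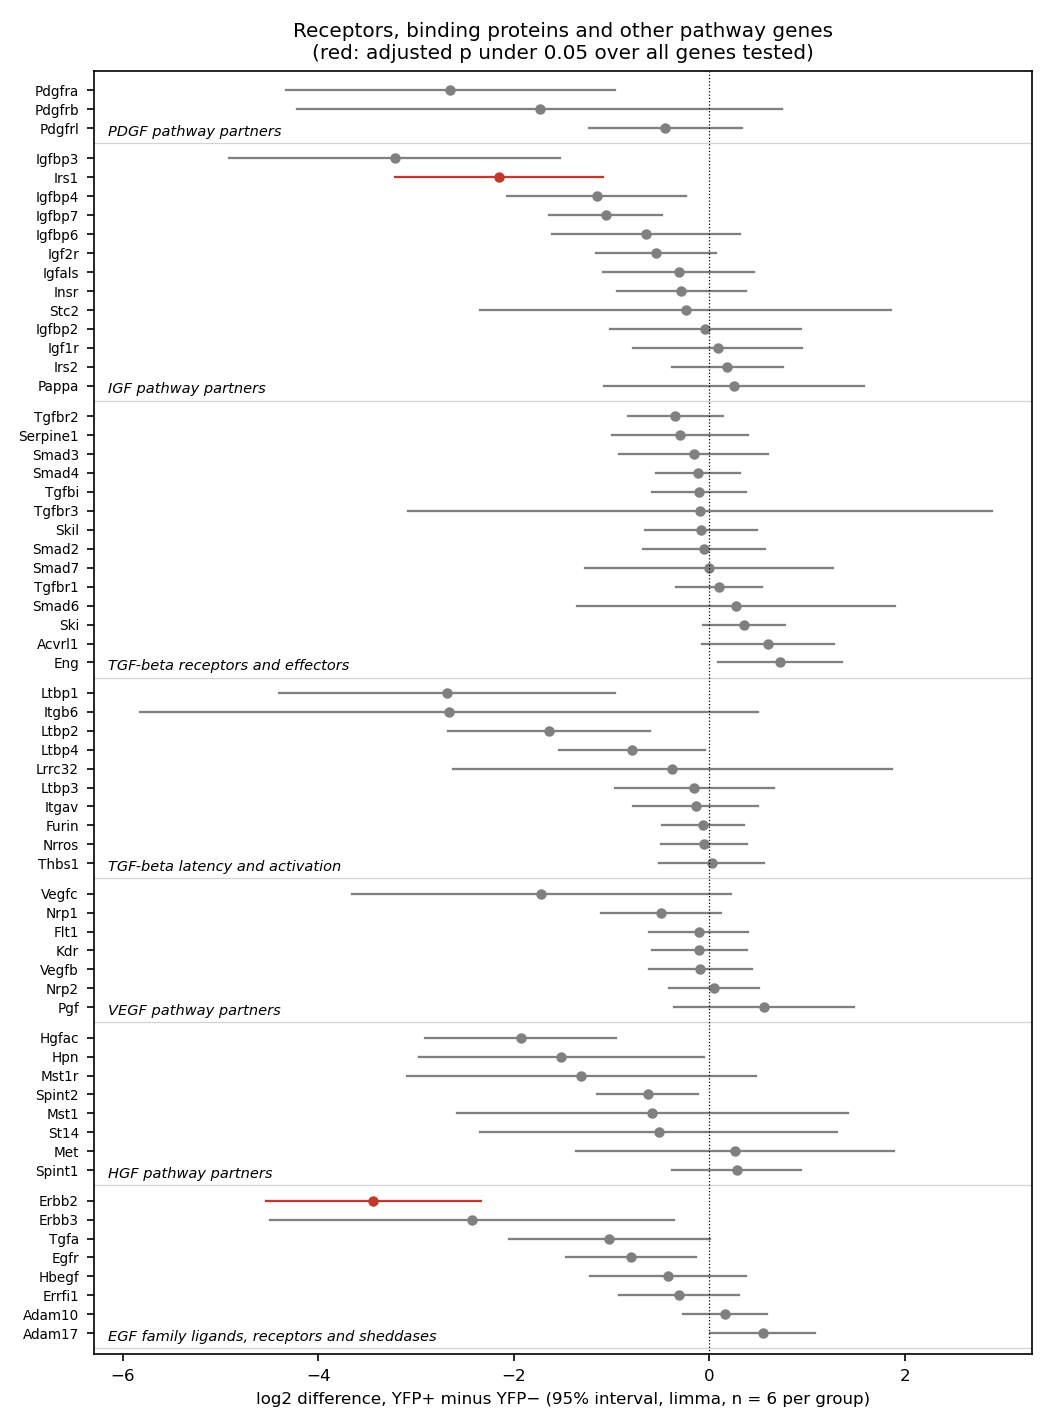
Log2 difference, YFP+ minus YFP-, of the 63 tested pathway genes in 7 lists, with 95% intervals from limma (n = 6 per group) and red for an adjusted p under 0.05 over all features. Erbb2 at −3.44 and Irs1 at −2.15 are the 2 red points. Of the 63 genes 48 lie below 0, where 52.8% of all features do. With median centring these are 33 of 63 and 33.2%, and with normexp 48 of 63 and 60.1%.

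Markers of some other cell types differed between the groups, in genes that are no growth factors. All 10 macrophage markers, Csf1r, Adgre1 and C1qa among them, were well above background on every array, and 0 of 10 were called. Their summed signal, in multiples of the array's 75th percentile, was 173 to 293 in YFP+ and 194 to 324 in YFP-. Over all features 1.41% were called lower in YFP+ and 0.334% higher. Of 12 fibroblast markers such as Col1a1 and Dcn, 8 were called lower in YFP+, with a summed signal of 26.8 to 54.1 in YFP+ and 75.4 to 181 in YFP-. Of 10 epithelial markers such as Krt19 and Epcam, 4 were called lower, with sums of 5.30 to 12.5 in YFP+ and 15.9 to 42.5 in YFP-. The groups did not overlap in either sum.

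Of 5 tested red cell markers 3 were called lower in YFP+ (sums of 3.83 to 27.1 in YFP+, 28.5 to 92.5 in YFP-). Of 10 acinar markers 1 was called lower (4.67 to 30.5 in YFP+, 12.9 to 106 in YFP-). All 5 red cell and all 10 acinar markers had negative differences. Of 5 tested mast cell and basophil markers 2 were called lower, Mcpt8 and Tpsb2. Hdc also had a negative difference, and Kit and Il1rl1 positive ones of 0.71 and 0.90, none of them called. The mast cell and basophil sums overlapped (1.5 to 5.22 in YFP+, 2.95 to 13.5 in YFP-). Endothelial (0 of 9 tested, 1.51 to 2.62 in YFP+ and 1.03 to 5.11 in YFP-), T cell (0 of 4, 0.77 to 1.49 in YFP+ and 0.53 to 1.29 in YFP-), B lineage (0 of 6, 3.26 to 18.7 in YFP+ and 2.99 to 7.03 in YFP-) and platelet markers (0 of 5, 12.9 to 21.9 in YFP+ and 17.4 to 27.4 in YFP-) held no called gene. Median B lineage and T cell sums were higher in YFP+ (10.6 and 1.01) than in YFP- (3.99 and 0.70), with overlapping ranges. Median endothelial and platelet sums were lower in YFP+ (2.02 and 17.0) than in YFP- (2.37 and 21.4), also with overlap. The B-cell marker Ms4a1 was well above background on 1 YFP+ and 0 YFP- arrays, and Cd3g, Il2ra, Gata3, Tie1, Cpa3, Fcer1a and Ms4a2 also failed the detection filter. Fibroblasts and epithelial cells express several of the genes above. Among them Pdgfra, Pdgfrb, Erbb2, Igfbp3, Tgfb2 and Tgfb3 had negative differences, and Hgf and Met positive ones. The part of other cells in the differences of these genes, or of Igf1 and Pdgfc, was not tested.

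**Figure D4:**
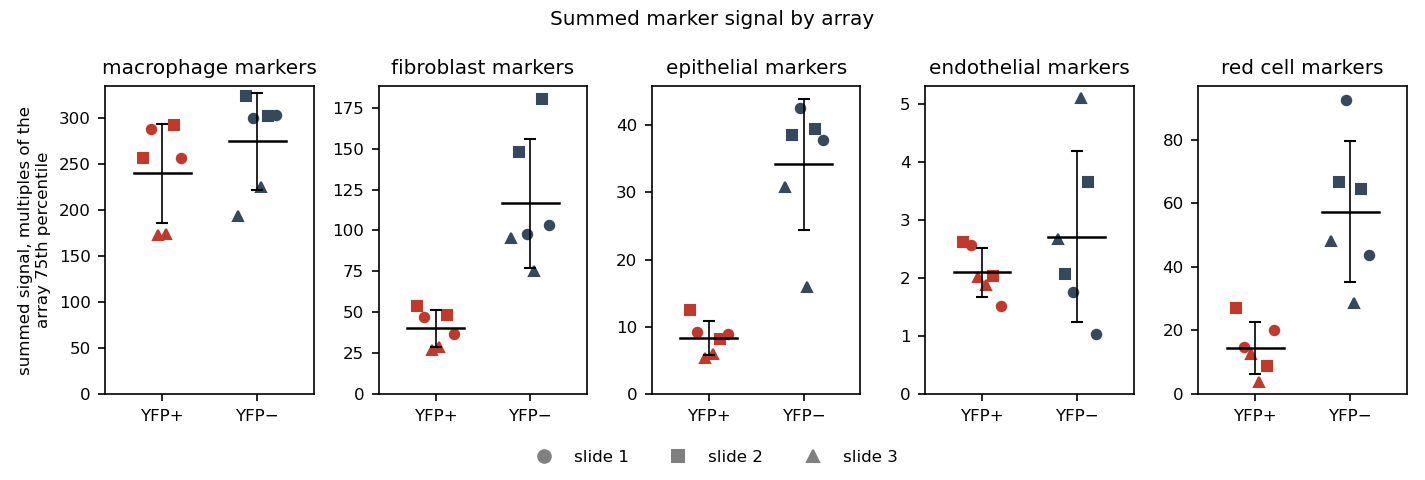
Summed linear signal of marker genes on each array, in multiples of the array's 75th percentile, with YFP+ left of YFP-, symbols for the slide and the mean ± SD (n = 6). Fibroblast, epithelial and red cell sums are lower in YFP+ without overlap, and macrophage and endothelial sums overlap.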

How the data were processed

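Arrays of the 4x44K Agilent design were hybridised with Cy5-labelled, amplified cDNA. The deposited intensity values come from Agilent Feature Extraction 11.5.1.1, per the file headers and the submitters' processing notes, and the red processed signal has background subtracted and spatial trends removed. The authors' value table is on a log2 scale, per its values, with equal medians and no centring, as after quantile normalization, and served as an alternative. No column went unused.

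Control and flagged spots were left out, and the spots of a probe were averaged. Log2 signals minus each array's 75th percentile were kept for probes that rose well above background on 6 or more of the 12 arrays. The probe with the highest mean represented a gene. The group comparison used lmFit and eBayes of limma 3.58.1 (R 4.3.3), with group alone in the model, with Benjamini-Hochberg adjustment over 20370 features and a threshold of 0.05. The test was checked on simulated arrays with the means and spreads of the real features. It called 17 of 100 features changed by 1 log2 unit, 64 of 100 changed by 2, and 7 of 20170 unchanged ones. A difference of the size seen for most members could thus go uncalled. Python 3.11.15, pandas 2.3.3, numpy 2.4.6 and matplotlib 3.10.9 were also used. Gene names were updated through RefSeq accessions where they matched (28330 probes), and no genome sequence or annotation of mm9 was used. The number of arrays limits the precision.

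The members and lists were chosen with earlier results of these data known. From the pathway lists the text names every called gene, the 2 with the smallest p in each list, and Pdgfra, Pdgfrb, Igf1r, Tgfbr1, Tgfbr2, Flt1, Kdr, Nrp1, Met and Egfr. Marker genes are named as examples. Alternatives were a block for tumour number, slide or both, each slide alone, normexp (offset 50), quantile normalization, median centring, the deposited table, other filters, averaged probes per gene, single probes, trended robust variances, brightness as a covariate, and leaving out each array. Macrophages of normal pancreas, named in the design text, were not analysed here, and some marker genes and probe details are not reported here.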

Additional observations from a re-analysis of the deposited data

Results flagged for a closer look

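In each group of 6 arrays, each growth factor gene was checked for a value far from the others by Dixon's criterion, 20 checks in all, of which chance flags about 1 in 20. There were 2 such values, both in YFP-. Pdgfc in YFP- replicate 6 was 1.17 on the log2 scale, against 0.45 in the nearest YFP- array. Tgfb2 in YFP- replicate 3 was −6.53, against −3.56 in the nearest, and was the 1 YFP- array not well above background for that probe.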

How the results depend on the processing

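No growth factor gene was called, higher or lower, under any alternative, including each array left out (0 to 0 in both directions). Of all features, 356 were called, and 266 to 383 with 1 array left out. The count was 556 with slide as a block, 201 with slide and tumour number as a replicate block, 542 with normexp, 233 with the filter on all arrays, 11 with brightness as a covariate, and 0 on each of slides 1, 2 and 3 alone, where 2 arrays stand against 2. Same-numbered samples had correlations of their deviations from −0.30 to 0.37, and 3 of 6, all on a shared slide, correlated best with their own number. No number split over different slides did, so this check cannot tell a shared tumour from a shared slide. The main fit did not take the numbers as pairs. With the tumour number as a replicate block 296 features and 0 members were called. Median centring gave 116 higher and 230 lower features in YFP+, against 68 and 288, and moved the median of all features to 0.18. Signs turned for 5 members, and the cause was not tested. Pdgfa was 0.31 on slide 3, 0.00758 with normexp, 0.14 with median centring, 1.11 with the brightness covariate, and −0.20 to 0.0868 with 1 array left out. Pdgfb was −0.25 on slide 3, −0.000364 with normexp, −0.16 as the mean of its probes, and −0.0623 to 0.15 with 1 array left out. Areg was −0.87 on slide 2 and −0.00436 to 0.42 with 1 array left out. Tgfb3 was 0.0894 on slide 3 and 0.49 with the covariate, and Vegfa 0.10 and 0.59. Igf1 and Pdgfc stayed negative and Hgf and Tgfb1 positive in all 27 alternative fits, where the lowest adjusted p-values were 0.10, 0.20, 0.097 and 0.083. With the covariate Igf1 was −1.42, Tgfb1 0.81, Tgfb2 −4.17 and Hgf 0.36. Because brightness largely goes with the group, values and calls from the covariate fit cannot tell brightness from group. Irs1 was called in 4 and Erbb2 in 22 of 26 fits, and with the tumour number as a replicate block their adjusted p-values were 0.062 and 0.012, or 0.11 and 0.046 with slide added. The fits without an Erbb2 call were each slide alone and the fit with the covariate. Tgfb3 minus Tgfb1 ran from −0.95 to −0.58 with 1 array left out and passed in 1, and sign flips within tumour numbers, as a replicate block, gave an adjusted exact p of 0.13. The other pair differences with 1 array left out were 0.002 to 0.27 (Pdgfb minus Pdgfa), −0.59 to −0.14 (Pdgfc minus Pdgfa), −0.60 to −0.24 (Pdgfc minus Pdgfb), −3.51 to −2.40 (Tgfb2 minus Tgfb1) and 1.63 to 2.82 (Tgfb3 minus Tgfb2). The summed macrophage marker level, −0.19 as a log2 ratio, was 0.013 with median centring. Dim probes limit Tgfb2, Pdgfra, Pdgfrb, Vegfc and Met, and the YFP+ levels of both called genes, Erbb2 and Irs1.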
